A study of Mus musculus with 6 samples.

Results

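Aminoacyl-tRNA synthetases join each amino acid to its transfer RNA, and their transcripts were compared here between Drp1-deficient and control mouse muscle. A gene was taken as a member where the gene name given in the files contains the words tRNA synthetase. This gave 42 of the 27179 genes listed, and none of them was a pseudogene. They comprised 19 genes of cytosolic enzymes, 17 genes of mitochondrial enzymes and 2 genes, *Gars* and *Kars*, whose products serve both compartments. The remaining 4 genes carry the words in their names but do not encode a charging enzyme. *Aimp1* and *Aimp2* encode scaffold proteins of the multisynthetase complex, and *Aarsd1* and *Prorsd1* encode proteins with a synthetase-related domain. All 42 genes passed the filter on low counts, which left 16483 genes to test.

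RNA-seq was performed on quadriceps muscle of 3 control mice (libraries B, C and D) and 3 miDrp1KO mice (libraries A, E and F) fed normal chow, and the study set out to examine how acute loss of Drp1 acts on muscle mass. Drp1 is the GTPase that divides mitochondria, and its gene is *Dnm1l*. The miDrp1KO mice carried floxed *Dnm1l* and HSA-MerCreMer, a tamoxifen-inducible Cre driven by the human *ACTA1* promoter. The controls are labelled Control f/f, although the methods of the study also allow controls with 1 floxed allele and do not say whether they carried the Cre. All mice were on a C57BL/6J background and received tamoxifen at 3 months of age, and the transcriptome was taken 3 weeks after the deletion. Since the Cre acts in skeletal muscle fibres, the other cells of the muscle keep an intact gene in these mice. *Dnm1l* itself measured 156, 114 and 140 CPM (counts of a gene relative to the scaled library total) in controls B, C and D, against 70.6, 81.3 and 66.2 CPM in miDrp1KO mice A, E and F. Its groups did not overlap, and the log2 fold change was -0.91 (SE 0.18), with an adjusted p of 0.362 by the quasi-likelihood test of edgeR, Benjamini-Hochberg adjusted over all genes, and of 0.00534 in DESeq2.

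Library totals ran from 13989588 to 62042255 counts, and ribosomal RNA genes took 1.48 to 24.4% of them. This share differed widely within both groups, from 3.36 to 15.6% over the controls and from 1.48 to 24.4% over the miDrp1KO libraries. CPM were computed here with library sizes scaled by TMM, so that the level of a gene is read against the bulk of the other genes. An adjusted p under 0.05 was reached by 2 of these 16483 genes (0.0121%). The unadjusted p was under 0.05 for 1796 (10.9%), of which 1025 (6.22% of those tested) were lower and 771 (4.68%) were higher in miDrp1KO muscle. The groups did not overlap for 2965 genes (18%), with every miDrp1KO library below every control library for 1700 (10.3%) and above for 1265 (7.67%). These shares are the background against which the counts of synthetase genes are given.

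A synthetase recognises its amino acid and the matching tRNA and couples them at the cost of ATP, which supplies the ribosome with charged tRNA. Cytosolic protein synthesis and the synthesis of the few proteins encoded by mitochondrial DNA use mostly separate sets of enzymes, and both sets are encoded in the nucleus. Several cytosolic enzymes are held together in the multisynthetase complex, and many of their genes are textbook targets of the transcription factor ATF4 in the amino acid response, through an element that ATF4 binds together with C/EBP proteins. Muscle depends on both sets, since contractile proteins are made in the cytosol and the respiratory chain needs subunits made inside mitochondria.

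The promoters of the members were read from RefSeq (GRCm38.p6), from 250 bases before the annotated start to 50 after it, and 32 of the 42 genes had an entry. The core of the amino acid response element was searched as TGATGNAA on both strands, where it reads TTNCATCA on the other strand. It was present in 4 of the 12 cytosolic genes with a promoter, in 1 of the 2 genes of both compartments and in 0 of 14 mitochondrial genes. Among all 27025 genes with a promoter entry, 4.51% had it. The stretches that hold the match are printed 5′ to 3′ on the strand of the gene, with the match in capitals, because they show which synthetase genes carry the element and where it lies. For *Aars* the match begins 112 bases before the start (chr8:111033684-111033783, plus strand), and there is another that begins 9 bases after it (chr8:111033842-111033871).
Aars, before the start: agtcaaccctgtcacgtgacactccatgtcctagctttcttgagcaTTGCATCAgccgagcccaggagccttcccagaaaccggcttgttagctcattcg
Aars, after the start: cgggtcactTTTCATCAgagcgctctgatt
For *Gars* it begins 30 bases before the start (chr6:55037901-55038000, plus strand), and for *Tars* 15 bases before it (chr15:11399659-11399758, minus strand).
Gars: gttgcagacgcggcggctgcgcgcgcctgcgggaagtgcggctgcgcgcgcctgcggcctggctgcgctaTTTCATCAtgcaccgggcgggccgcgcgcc
Tars: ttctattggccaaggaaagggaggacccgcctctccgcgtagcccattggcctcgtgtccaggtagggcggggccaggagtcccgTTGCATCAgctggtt
For *Iars* it begins 7 bases after the start (chr13:49682130-49682159, plus strand), and for *Yars* 3 bases after it (chr4:129189903-129189932, plus strand).
Iars: gtcagtaTTGCATCAcctccagacgcggaa
Yars: agcTGATGCAAcccgacgggactagcgtga
The E-box CACGTG, which reads the same on both strands, was present in 4 of the 12 cytosolic genes (*Aars*, *Farsb*, *Iars* and *Tars*), in 0 of the 2 genes of both compartments, in *Ears2* among the 14 mitochondrial genes and in 8.09% of all genes. The 2 motifs can share bases at their ends, which they do not in the printed stretches. The starts used for *Aars* and *Yars* lie inside their listed gene bodies (chr8:111027778-111055569 and chr4:129189734-129219240). The positions of their matches are therefore relative to an internal start. A match describes these windows and says nothing of binding in this muscle.

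Levels were compared between genes as CPM per kilobase of exon. Among the cytosolic enzymes, *Eprs*, which encodes the enzyme that charges both glutamate and proline tRNA, was highest, at 91.8 ± 3.35 CPM per kilobase in the controls (SD, n = 3). *Nars* (42.8 ± 1.41), which charges asparagine tRNA, *Sars* (32.3 ± 3.88) for serine, *Tarsl2* (30.1 ± 1.53) for threonine and *Dars* (28.0 ± 2.07) for aspartate followed. *Sars* and *Tarsl2* did not differ beyond their spread, and the values of *Tarsl2* and *Dars* overlapped between mice. *Vars*, for valine, was lowest of the 19, at 4.58 ± 0.61 CPM per kilobase. *Kars*, at 36.0 ± 2.53, stood near the top of this order, and *Gars* was at 21.8 ± 1.42. Most mitochondrial enzymes were lower than most cytosolic ones on the same scale. Leaving out *Lars2*, which is treated apart, *Fars2* was highest at 13.3 ± 3.95 CPM per kilobase, followed by *Iars2* (12.5 ± 1.91), *Rars2* (9.96 ± 1.19), *Tars2* (4.99 ± 0.92) and *Hars2* (4.25 ± 0.64). *Fars2* and *Iars2* did not differ beyond their spread, and neither did *Tars2* and *Hars2*. *Pars2* (0.65 ± 0.13) and *Mars2* (0.53 ± 0.029) had the lowest values. The 11.3 kb of exon taken for *Mars2* is longer than its listed gene body (chr1:55237177-55240058). Its level per kilobase and its place in this order are therefore uncertain. The scaffold gene *Aimp2* reached 132 ± 34.8 CPM per kilobase, above all of the charging enzymes other than *Lars2*, but 29.4% of its exon bases, counted over all its annotated transcripts, overlap *Eif2ak1* on the opposite strand.

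**Figure D1:**
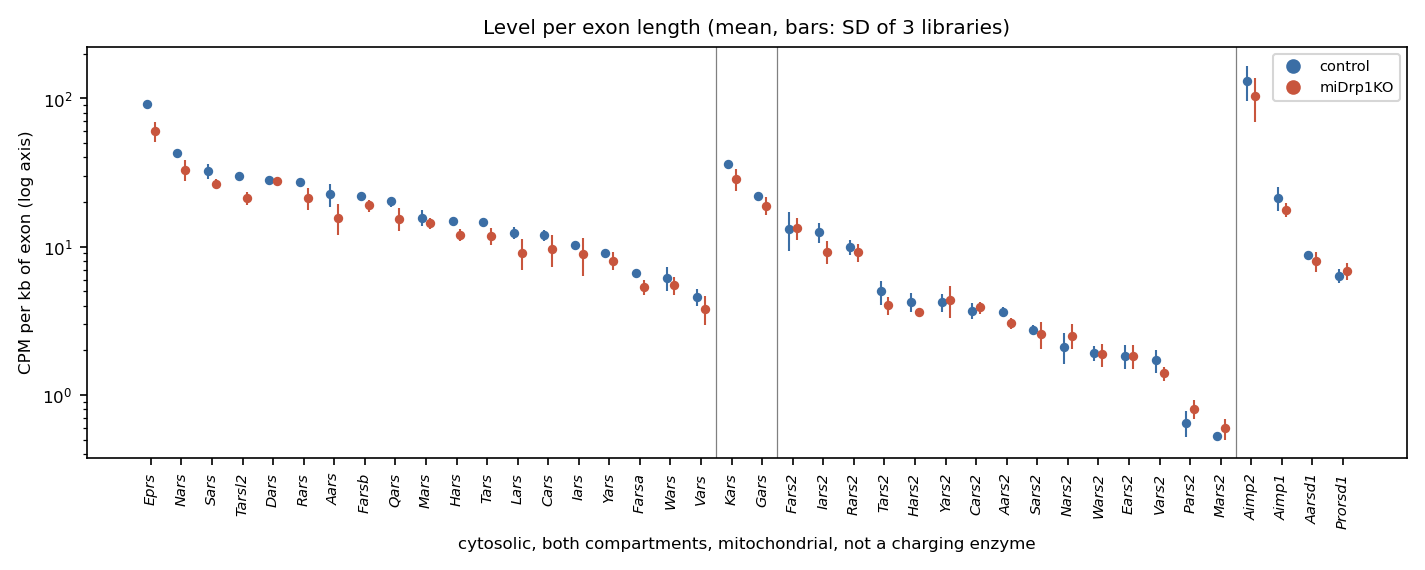
Level of the members named here in CPM per kilobase of exon on a log axis, as the mean and SD of the 3 control and the 3 miDrp1KO libraries. Eprs is highest among the cytosolic enzymes (91.8 in control muscle, 60.4 in miDrp1KO muscle), and most mitochondrial enzymes lie below the cytosolic ones. The level of Mars2 is uncertain because its exon length is.

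The cytosolic enzymes were lower in miDrp1KO muscle in 19 of 19 cases by their log2 fold change, with a median of -0.31 and a range from -0.60 to -0.02. The median over all genes tested was 0.017, and 48.0% of these were lower. No cytosolic enzyme passed the adjusted threshold (edgeR, adjusted p from 0.382 to 0.976), and none did in DESeq2 or limma voom. The unadjusted p was under 0.05 for 5 of the 19 genes (26.3%), all of them lower, against the 6.22% of all genes that were lower at this threshold. This count moved with single libraries, as it was 1 without control library D, 2 without B or E and 11 without miDrp1KO library A. In the same fits, the genes lower at this threshold among all tested were 382 of 17750 without D and 618 of 17655 without B. They were 655 of 16753 without E and 1589 of 17845 without A, so the background moved as well. For 10 of the 19 genes (52.6%) every miDrp1KO library lay below every control library, against 10.3% of all genes, and for none did the opposite hold. These counts describe genes measured in the same 6 libraries and are not independent observations.

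*Eprs* showed the lowest log2 fold change among the members. It measured 461, 431 and 458 CPM in controls B, C and D, compared with 348, 272 and 269 CPM in miDrp1KO libraries A, E and F. All 3 miDrp1KO libraries were well below the controls, with A nearest to them. The mean was 450 ± 16.4 CPM in control and 296 ± 44.8 CPM in miDrp1KO muscle (SD, n = 3 each), or 65.8% of the control mean. Its log2 fold change was -0.60 (SE 0.19), with an unadjusted p of 0.00983 and an adjusted p of 0.382 in edgeR's quasi-likelihood test. The adjusted p was 0.072 in DESeq2, and the exact two-sided permutation p was 0.1, the lowest that 3 mice against 3 can give.

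*Tarsl2*, a threonyl-tRNA synthetase-like gene whose transcript was more abundant per kilobase than that of *Tars*, measured 92.9, 93.4 and 102 CPM in the controls and 74.4, 60.2 and 68.8 CPM in libraries A, E and F. The groups were separated by more than the range of the controls. The mean was 96.0 ± 4.87 CPM in control and 67.8 ± 7.14 CPM in miDrp1KO muscle (SD, n = 3 each), with a log2 fold change of -0.50 (SE 0.16; edgeR adjusted p = 0.382). *Tars*, the cytosolic threonyl-tRNA synthetase, measured 54.7, 61.1 and 61.4 CPM in the controls and 54.3, 42.4 and 45.5 CPM in miDrp1KO muscle. Its groups did not overlap either, but library A lay only just under control library B. The log2 fold change of *Tars* was -0.32 (SE 0.16).

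*Aars*, the alanyl enzyme, measured 149, 103 and 137 CPM in the controls and 112, 87.9 and 69.4 CPM in miDrp1KO muscle. Library A exceeded control library C, so the groups overlapped, while the log2 fold change was -0.53 (SE 0.22; edgeR adjusted p = 0.418). Of the exon bases of *Aars* over all annotated transcripts, 14.3% are shared with *Exosc6* on the same strand, which was at 2.13 to 2.92 CPM in the controls and 1.90 to 2.64 CPM in miDrp1KO muscle. *Lars*, the cytosolic leucyl enzyme and a sensor of leucine for mTORC1, measured 52.0, 44.02 and 51.7 CPM in the controls and 44.8, 35.8 and 27.7 CPM in miDrp1KO muscle. Here too library A lay above control library C, and the log2 fold change was -0.45 (SE 0.19; edgeR adjusted p = 0.435). *Qars*, the glutaminyl enzyme, measured 52.1, 56.4 and 61.0 CPM in the controls and 47.2, 34.5 and 48.1 CPM in miDrp1KO muscle. Its groups did not overlap, and the log2 fold change was -0.39 (SE 0.17; edgeR adjusted p = 0.455).

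The other cytosolic genes without overlap between the groups were *Rars*, *Nars*, *Hars*, *Farsa*, *Sars* and *Farsb*, for which edgeR gave unadjusted p values from 0.053 (*Rars*) to 0.172 (*Farsb*). *Nars* was at 115, 116 and 122 CPM in the controls and 107, 79.0 and 86.1 CPM in miDrp1KO muscle (log2 fold change -0.38, SE 0.17). *Rars*, the arginyl enzyme, was at 55.6, 57.0 and 61.5 CPM against 53.4, 43.8 and 38.1 CPM (log2 fold change -0.37, SE 0.17). *Hars*, the histidyl enzyme, was at 27.6, 30.5 and 31.3 CPM against 25.1, 21.3 and 25.5 CPM (log2 fold change -0.31, SE 0.15). In *Rars* and *Hars* the nearest miDrp1KO library came within 3 CPM of the lowest control. *Sars* was at 130, 102 and 121 CPM against 102, 89.3 and 100 CPM (log2 fold change -0.28, SE 0.17). Control library C and miDrp1KO library A were nearly equal, so that its separation rests on a difference far smaller than the spread within the groups. The subunits of the phenylalanyl enzyme are encoded by *Farsa* and *Farsb*, and neither showed overlap. *Farsa* was at 11.6, 11.9 and 12.7 CPM in the controls and 10.4, 8.41 and 10.4 CPM in miDrp1KO muscle (log2 fold change -0.31, SE 0.17). *Farsb* was at 49.3, 49.6 and 47.01 CPM against 44.1, 37.2 and 43.96 CPM (log2 fold change -0.22, SE 0.15).

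The groups overlapped for *Cars*, *Vars*, *Yars*, *Iars*, *Wars*, *Mars* and *Dars*, with log2 fold changes from -0.31 (*Cars*) to -0.02 (*Dars*). *Dars* measured 66.2, 74.8 and 65.6 CPM in the controls and 67.3, 66.3 and 70.2 CPM in miDrp1KO muscle, and its log2 fold change had an SE of 0.15. *Iars*, the isoleucyl enzyme, was at 48.8, 42.5 and 44.3 CPM in the controls and 51.6, 38.4 and 28.8 CPM in miDrp1KO muscle. The miDrp1KO libraries of *Iars* thus lay on both sides of the controls (log2 fold change -0.19, SE 0.21).

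**Figure D2:**
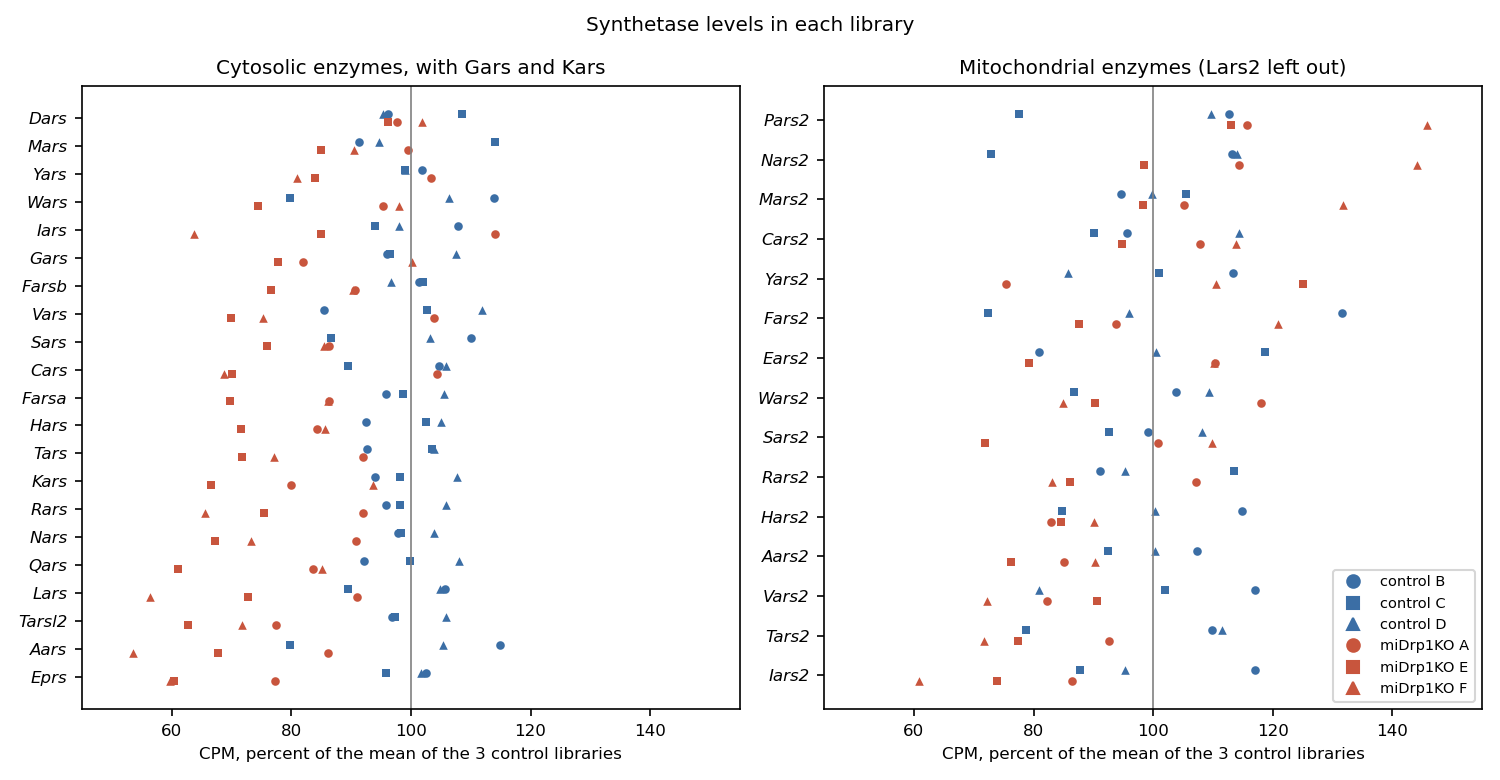
CPM of the enzymes named here in each library as a percentage of its mean in the 3 control libraries (left, cytosolic enzymes with Gars and Kars; right, mitochondrial enzymes without Lars2). The miDrp1KO points of most cytosolic enzymes lie left of the control points, with libraries E and F farther left than A, whereas the mitochondrial points are mixed.

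The 3 miDrp1KO libraries did not contribute equally. The median cytosolic enzyme stood at 91.0% of its control mean in library A, 71.7% in library E and 77.1% in library F, while in controls B, C and D the same median was 97.9, 98.3 and 105%. Library E was the lowest of the miDrp1KO libraries for 12 of the 19 genes, library F for 7 and library A for 0. The summed level of the 19 genes was 1512, 1421 and 1527 CPM in the controls and 1291, 1031 and 1053 CPM in miDrp1KO muscle, a mean of 75.7% of the control value. All 3 sums were below the lowest control. Without library A the cytosolic median log2 fold change was -0.40, and without library E it was -0.22.

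Enzymes inside and outside the multisynthetase complex had similar medians. The 8 enzymes of the complex, here *Eprs*, *Iars*, *Lars*, *Mars*, *Qars*, *Rars*, *Dars* and *Kars*, had a median log2 fold change of -0.34, and 3 were lower at an unadjusted p under 0.05. The 12 cytosolic genes outside it had a median of -0.31, and 2 were lower at the same threshold, against 6.22% of all genes. In 4 of the 8 and in 7 of the 12 every miDrp1KO library lay below every control, against 10.3% of all genes. *Aimp1* measured 19.9, 28.6 and 23.1 CPM in the controls and 21.3, 17.6 and 21.2 CPM in miDrp1KO muscle (log2 fold change -0.25, SE 0.18). *Aimp2* measured 125, 142 and 204 CPM against 98.2, 102 and 171 CPM (log2 fold change -0.35, SE 0.26). The groups overlapped for both, and for *Eef1e1*, the third scaffold gene, which is not a member by name and measured 9.33, 12.6 and 10.1 CPM in the controls and 13.3, 11.5 and 18.4 CPM in miDrp1KO muscle (log2 fold change 0.43, SE 0.21; edgeR adjusted p = 0.487). *Aarsd1* (log2 fold change -0.15, SE 0.17) and *Prorsd1* (0.12, SE 0.17) overlapped between the groups as well, and 41.0% of the exon bases of *Aarsd1*, counted in the same way, are shared with another annotated gene on the same strand.

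*Kars* and *Gars* encode enzymes of both compartments. *Kars*, the lysyl enzyme, measured 76.0, 79.4 and 87.1 CPM in the controls and 64.6, 53.8 and 75.7 CPM in miDrp1KO muscle. Its groups did not overlap, although library F was just under control library B, and its log2 fold change was -0.32 (SE 0.17; edgeR adjusted p = 0.532). *Gars*, the glycyl enzyme, measured 49.9, 50.1 and 55.9 CPM against 42.6, 40.4 and 52.1 CPM. Library F lay within the range of the controls, and the log2 fold change was -0.21 (SE 0.16; edgeR adjusted p = 0.665).

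The mitochondrial enzymes did not show a shared direction. Leaving out *Lars2*, 10 of 16 were lower and 6 were higher in miDrp1KO muscle, and the log2 fold changes had a median of -0.02 and a range from -0.44 to 0.30. None passed the adjusted threshold in edgeR (adjusted p from 0.432 to 0.997) or limma voom, nor did any of the 9 for which DESeq2 gives an adjusted p, while the other 7 have none there. The unadjusted p was under 0.05 for 1 of 16 (6.25%), against 10.9% of all genes in either direction. Every miDrp1KO library lay below every control for 2 genes (12.5%, against 10.3% of all genes), and above for 1. These shares are near the background. Several of these genes are read at low depth, down to 21 counts for *Pars2* in control library C, and the SE of their log2 fold changes ran from 0.17 to 0.28, compared with 0.15 to 0.22 for the cytosolic enzymes.

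*Iars2*, the mitochondrial isoleucyl enzyme, had the lowest p of this set. It measured 80.3, 60.2 and 65.4 CPM in the controls and 59.3, 50.7 and 41.7 CPM in miDrp1KO muscle. Libraries A and C were nearly equal, so the groups were only just apart, and the log2 fold change was -0.44 (SE 0.19; edgeR unadjusted p = 0.0366, adjusted p = 0.432). Of its exon bases over all annotated transcripts, 22.9% overlap *Rab3gap2* on the opposite strand, which measured 34.2, 38.0 and 33.8 CPM in the controls and 32.5, 27.8 and 19.3 CPM in miDrp1KO muscle. *Iars2* (chr1:185286642-185329419, minus strand, GRCm38) also lies on the same chromosome as *Eprs* (chr1:185361417-185428360, plus strand), with 31998 bp between these 2 gene bodies. *Aars2*, the mitochondrial alanyl enzyme, measured 13.1, 11.3 and 12.3 CPM in the controls and 10.4, 9.31 and 11.04 CPM in miDrp1KO muscle, without overlap (log2 fold change -0.26, SE 0.17; edgeR adjusted p = 0.592). *Pars2*, the mitochondrial prolyl enzyme, was the 1 member above all controls in every miDrp1KO library, at 2.23, 1.53 and 2.17 CPM against 2.28, 2.23 and 2.88 CPM. Its lowest miDrp1KO value and its highest control value are equal at this precision, and the log2 fold change was 0.30 (SE 0.28; edgeR adjusted p = 0.735).

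Among the more abundant mitochondrial enzymes, *Fars2* for phenylalanine measured 37.1, 20.4 and 27.0 CPM in the controls and 26.4, 24.7 and 34.1 CPM in miDrp1KO muscle, with a log2 fold change of 0.01 (SE 0.22). *Rars2* for arginine was at 16.95, 21.1 and 17.7 CPM against 19.9, 16.03 and 15.5 CPM (log2 fold change -0.12, SE 0.17). *Tars2* for threonine was at 23.8, 17.1 and 24.2 CPM against 20.1, 16.8 and 15.5 CPM (log2 fold change -0.32, SE 0.18). The groups of all 3 genes overlapped. *Hars2* for histidine was at 16.3, 12.0 and 14.2 CPM against 11.8, 12.0 and 12.8 CPM (log2 fold change -0.22, SE 0.17), and its exons share 195 bp with those of *Hars* on the opposite strand. The log2 fold changes of further mitochondrial genes were -0.28 for *Vars2*, -0.10 for *Sars2*, -0.04 for *Wars2*, under 0.01 in size for *Ears2*, 0.06 for *Yars2*, 0.07 for *Cars2*, 0.16 for *Mars2* and 0.24 for *Nars2*. The smallest of these changed sign with the normalization.

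**Figure D3:**
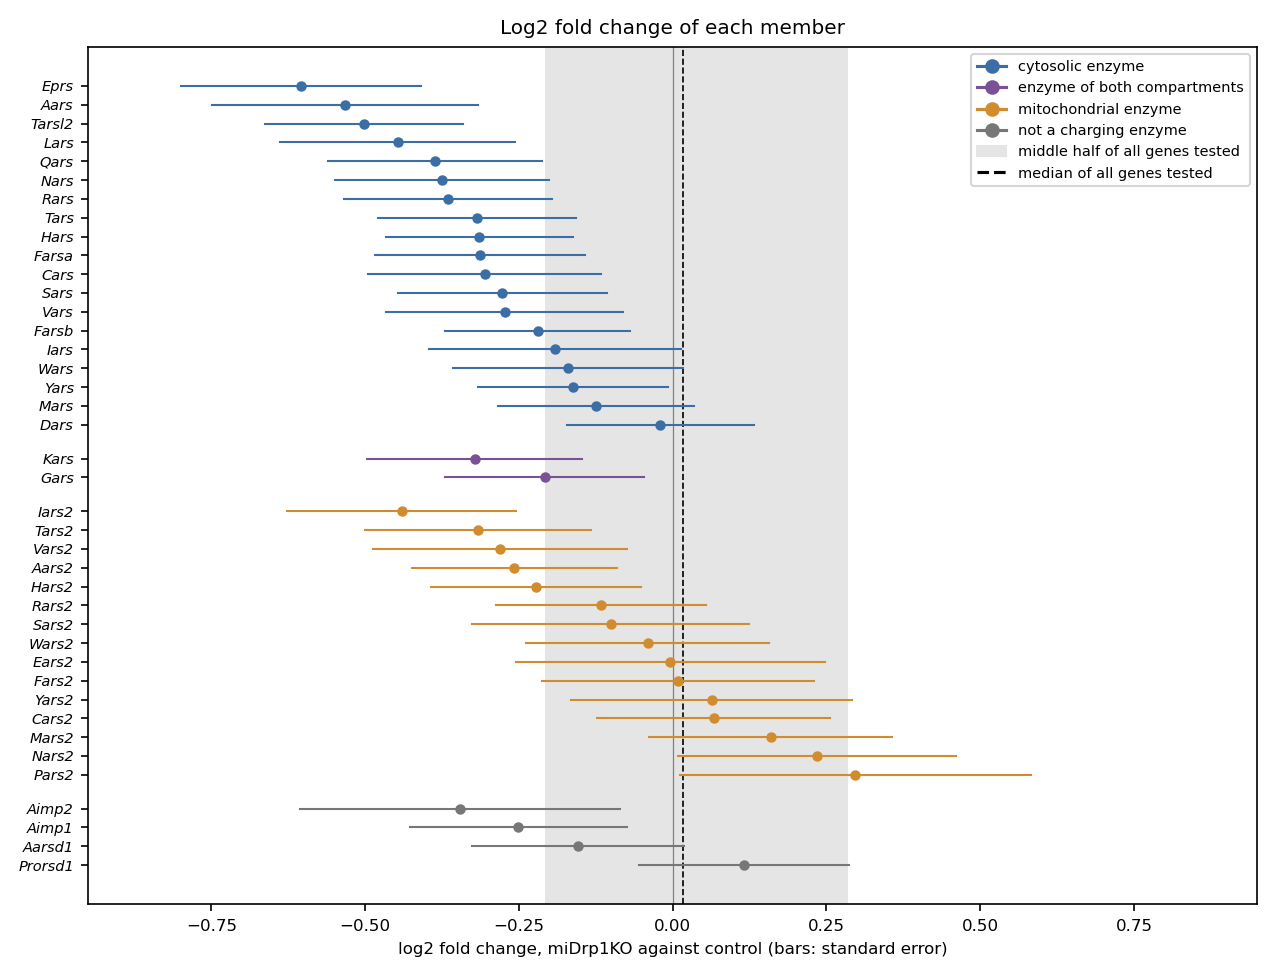
Log2 fold change of the members named here except Lars2, each with its standard error, by class, where negative values are lower in miDrp1KO muscle. The grey band is the middle 50% of all genes tested (-0.21 to 0.28) and the dashed line their median (0.017), and all 19 cytosolic enzymes lie left of zero while the mitochondrial enzymes fall on both sides.

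Cytosolic and mitochondrial enzymes for the same amino acid were also set against each other inside each library, which removes the library size from the comparison. The summed count of the 19 cytosolic genes was 5.94, 7.04 and 6.75 times that of the 16 mitochondrial genes in controls B, C and D, compared with 6.07, 5.42 and 5.22 times in miDrp1KO libraries A, E and F. Library A lay above control library B, so the groups overlapped, with means of 6.57 ± 0.57 and 5.57 ± 0.45 (SD, n = 3 each). Without *Eprs*, the most abundant of the 19, the means were 4.58 ± 0.41 and 4.11 ± 0.29, or 89.6% of the control mean in place of 84.7%. Of 12 amino acids with 1 gene in each compartment, the ratio was lower in miDrp1KO muscle for 11 and higher for 1, with a median log2 difference of -0.18. The groups did not overlap for 2 of the 12. Among all genes tested, 18% had no overlap in either direction, which is a share of single genes and not of ratios. *Nars* over *Nars2* was 12.7, 19.8 and 13.4 in the controls and 11.7, 10.04 and 7.48 in miDrp1KO muscle. *Mars* over *Mars2* was 7.49, 8.38 and 7.35 against 7.33, 6.70 and 5.33, with library A and control library D nearly equal. The exception was *Iars* over *Iars2*, at 0.61, 0.71 and 0.68 in the controls and 0.87, 0.76 and 0.69 in miDrp1KO muscle, with overlap. *Eprs* serves 2 amino acids whose mitochondrial enzymes are separate genes. *Eprs* over *Pars2* was 207, 282 and 211 in the controls and 152, 122 and 93.3 in miDrp1KO muscle, and *Eprs* over *Ears2* was 152, 97.02 and 122 against 84.2, 91.6 and 65.1. Both ratios were lower in every miDrp1KO library than in every control library, and both rest on low counts of the mitochondrial gene.

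*Lars2*, the mitochondrial leucyl enzyme, was kept out of the summaries because its counts moved with ribosomal RNA. It measured 35539, 19707 and 11784 CPM in controls B, C and D, compared with 54225, 1976 and 54398 CPM in miDrp1KO libraries A, E and F, a range of 27.5-fold that fell across both groups. Its control mean was 326 times that of *Iars2*, the next mitochondrial enzyme by CPM. *Lars2* took 0.280 to 5.66% of all counts and *Rn45s*, the ribosomal RNA precursor, 1.36 to 22.0%. There were between 20.6 and 37.5 *Lars2* counts for every 100 *Rn45s* counts, a range of 1.82-fold. The library with the lowest *Lars2* level, E, was also the lowest in *Rn45s*, and F and A were the highest in both. The log2 fold change of *Lars2* was 0.72 (SE 1.12; edgeR adjusted p = 0.853) and turned to -0.56 once the share of ribosomal RNA entered the fit as a covariate, so no level or direction of the *Lars2* transcript is given. The cytosolic median was -0.33 with this covariate and -0.27 when *Lars2* and the ribosomal RNA genes were removed from the counts.

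**Figure D4:**
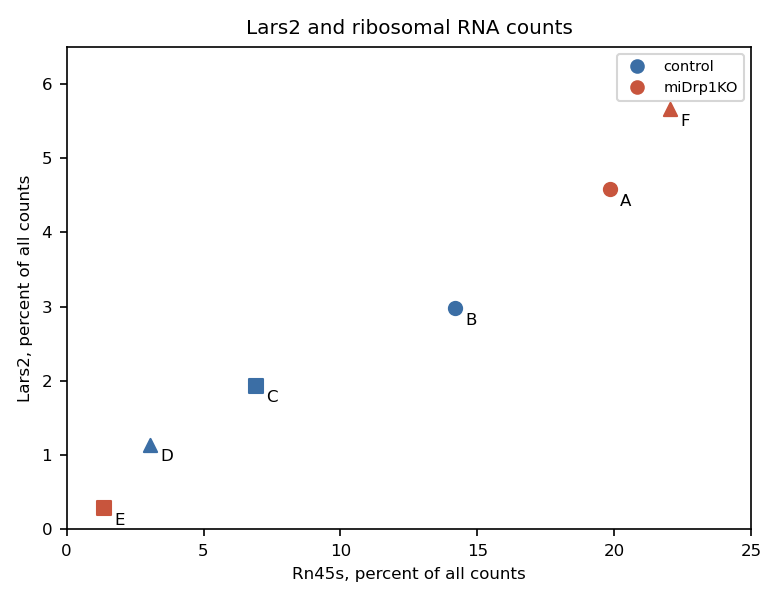
Lars2 against Rn45s, each as a percentage of all counts of the library, for control libraries B, C and D (blue) and miDrp1KO libraries A, E and F (red). The 6 libraries follow 1 rising line from E (1.36% Rn45s, 0.280% Lars2) to F (22.0% Rn45s, 5.66% Lars2) irrespective of genotype.

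Of 10 general skeletal muscle markers 9 were lower in miDrp1KO muscle, while 7 of 7 markers of slow fibres were higher. The summed level of 10 skeletal muscle marker genes was 140238, 144572 and 150978 CPM in controls B, C and D, compared with 110381, 64878 and 75926 CPM in miDrp1KO libraries A, E and F. All 10 were detected, 4 lay below all controls in every miDrp1KO library (10.3% of all genes did) and 3 were lower at an unadjusted p under 0.05 (6.22% of all genes). The miDrp1KO libraries had the same order in this sum as in the median cytosolic enzyme, with A highest and E lowest. In bulk muscle, fewer fibres and less of a transcript per fibre cannot be told apart. The summed level of 6 adipose markers was 422 to 676 CPM in the controls and 281 to 399 CPM in miDrp1KO muscle, with 6 of 6 lower, 3 of them without overlap and 3 at an unadjusted p under 0.05. The 4 satellite cell markers summed to 16.6 to 18.9 CPM and 13.1 to 13.8 CPM, with 2 of 4 lower, 1 of them without overlap and 1 at an unadjusted p under 0.05. The sums of the other lists overlapped between the groups. The 7 slow fibre markers summed to 52.8 to 442 CPM in the controls and 81.2 to 723 CPM in miDrp1KO muscle (median log2 fold change 1.47), and none had an unadjusted p under 0.05. The 8 macrophage markers summed to 130 to 228 CPM and 168 to 210 CPM, with 5 higher (median 0.37), 2 of them above all controls (7.67% of all genes) and 3 higher at an unadjusted p under 0.05 (4.68% of all genes). All 6 fibroblast markers (1218 to 1714 and 1347 to 2291 CPM) and all 5 peripheral nerve markers (35.7 to 49.9 and 39.6 to 70.8 CPM) had higher means, with 1 nerve marker above all controls. Of 5 endothelial markers (143 to 255 and 142 to 228 CPM) 4 were lower, and of 4 blood markers (47.2 to 272 and 73.2 to 231 CPM) 3 were higher. None of the markers was at 0 in all libraries. The part of fibre content or of other cells in the synthetase levels was not tested.

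The other genes of the tRNA and translation pathways were read from 9 lists, and no gene of any list passed the adjusted threshold in edgeR. Their counts are likewise to be set against all genes tested, of which 6.22% were lower and 4.68% higher at an unadjusted p under 0.05, and 10.3% lay below and 7.67% above all controls in every miDrp1KO library. The next list holds 9 genes for cytosolic elongation, in which charged tRNA is carried to the ribosome and moved along, with factors and their regulators. Of these, 5 were lower and 4 higher (median log2 fold change -0.15), and 2, both lower, had an unadjusted p under 0.05 (6.22% of all genes). These were *Eef1a2*, the muscle form of the factor that delivers charged tRNA (1166, 1032 and 1279 CPM in the controls, 837, 627 and 931 CPM in miDrp1KO muscle), and *Eef2k*, the kinase that restrains elongation (log2 fold change -0.51, SE 0.23). In *Eef1a2* all miDrp1KO libraries were below the controls, with a log2 fold change of -0.54 (SE 0.23; edgeR adjusted p = 0.437). Among 24 genes for transcription of tRNA by RNA polymerase III, 15 were lower and 9 higher (median -0.07). The polymerase subunits *Polr3gl* (log2 fold change -0.45, SE 0.16) and *Polr3c* (-0.47, SE 0.17) and the initiation factor *Brf1* (-0.43, SE 0.18) were lower and *Polr1c* (0.64, SE 0.25) higher at an unadjusted p under 0.05. Among 18 genes for export, trimming and quality control of tRNA, 8 were lower and 10 higher (median 0.01), and *Gtpbp1* (-0.37, SE 0.15) and *Gtpbp2* (-0.45, SE 0.16), GTPases that act on stalled ribosomes, passed the unadjusted threshold.

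On the mitochondrial side, all 4 genes that complete tRNA charging beside the synthetases had negative log2 fold changes (median -0.24). *Mtfmt* was all but unchanged (-0.01, SE 0.21), and the groups overlapped for *Mtfmt*, *Gatb* and *Qrsl1*. *Gatc*, a subunit of the amidotransferase that makes glutaminyl-tRNA in mitochondria, which have no glutaminyl enzyme of their own, measured 51.9, 40.7 and 51.7 CPM in the controls and 40.5, 33.4 and 34.6 CPM in miDrp1KO muscle. Library A and control library C were nearly equal, and the log2 fold change was -0.41 (SE 0.17; edgeR adjusted p = 0.416). Of 11 mitochondrial translation factors 9 were lower and 2 higher (median -0.15), with the elongation factor *Gfm1* (-0.58, SE 0.23) and the recycling factor *Gfm2* (-0.56, SE 0.19) at an unadjusted p under 0.05. Of 19 genes for processing and modification of mitochondrial tRNA 8 were lower and 11 higher (median 0.04). In this list 5 genes lay below all controls and 3 above them, and 4 of 19 passed the unadjusted threshold, all lower (6.22% of all genes), among them *Elac2*, which cuts the 3′ end of tRNA precursors (-0.50, SE 0.19), *Nsun2*, a tRNA methyltransferase (-0.40, SE 0.16), and *Mto1*, which modifies the wobble base (-0.41, SE 0.17). The fourth is listed as *1110008L16Rik* (-0.51, SE 0.16).

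The list of ATF4 targets holds genes of the amino acid response other than the synthetases. Of 30 tested genes 11 were lower and 19 higher (median 0.05), and 0 were lower and 2 higher at an unadjusted p under 0.05. *Mthfd2*, a mitochondrial folate enzyme, measured 2.32, 1.75 and 2.37 CPM in the controls and 5.98, 2.16 and 5.09 CPM in miDrp1KO muscle (log2 fold change 1.0, SE 0.36; edgeR adjusted p = 0.392). Libraries A and F were above all controls and E was within their range. *Trib3*, a pseudokinase that feeds back on ATF4, measured 0.66, 1.09 and 0.37 CPM against 1.46, 1.28 and 7.97 CPM, with library F far above the rest (log2 fold change 2.45, SE 0.91; edgeR adjusted p = 0.426). *Atf4* itself was at 58.8, 77.3 and 61.7 CPM against 74.1, 67.1 and 88.2 CPM, and *Asns*, the asparagine synthetase, at 2.08, 3.57 and 2.73 CPM against 2.82, 1.54 and 3.07 CPM, both with overlap. Of 15 genes for the eIF2 kinases and their partners, which sense uncharged tRNA and other stresses, 12 were lower and 3 higher (median -0.28). Here 5 genes lay below all controls and 0 above them, and 4 of 15 had an unadjusted p under 0.05, all lower (6.22% of all genes), with log2 fold changes of -0.62 (SE 0.21) for *Gcn1l1*, a partner of the kinase that binds uncharged tRNA, -0.39 (SE 0.15) for *Impact*, -0.46 (SE 0.19) for *Eif2ak1* and -0.38 (SE 0.17) for *Eif2b1*. The kinase itself, *Eif2ak4*, was at 9.52, 13.6 and 10.2 CPM against 12.2, 9.14 and 7.68 CPM, with overlap.

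For the 5 members with the element in the printed stretches, the log2 fold changes were -0.53 for *Aars*, -0.32 for *Tars*, -0.21 for *Gars*, -0.19 for *Iars* and -0.16 for *Yars*. Of these, *Tars* alone had every miDrp1KO library below every control library, against 10.3% of all genes. Of the 12 cytosolic genes with a promoter entry, 4 hold the element. The other cytosolic genes with an entry do not hold these letters and are not listed here. Genes with and without the element are therefore not compared.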

How the data were processed

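The authors deposited 1 file of raw counts per library, as whole numbers of reads per Entrez gene. By the methods of the study, total RNA (TruSeq Stranded, RiboZero Gold) was sequenced in 2 pools, and Rsubread served for both alignment (to GRCm38) and counting. The submitters' processing notes also name FastQC and DESeq2 1.30.0. Which library was in which pool, the strand setting and the handling of reads shared by genes are not given in the sources used here, so overlapping genes are uncertain. Groups follow the genotype labels, and titles name a different mouse for each library.

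Counts were fitted in R 4.3.3 with edgeR 4.0.16 over all genes (filterByExpr by genotype, TMM, robust quasi-likelihood test, Benjamini-Hochberg adjustment, threshold 0.05). SE is the log2 fold change divided by the square root of the F statistic. Single genes were also compared by exact two-sided permutation over the 6 mice. The outcome of a test of the method on simulated data is not reported here, and no result rests on it. Exon lengths come from GENCODE transcripts that match curated RefSeq entries (GRCm38). Members are all genes whose names contain tRNA synthetase. Full values are given for members with an unadjusted p under 0.05 or no overlap, the 5 most abundant per kilobase in each class, *Lars2*, *Gars*, *Kars*, *Eprs*, *Aimp1*, *Aimp2* and *Dnm1l*, and a few others were named after their values were seen. In each list, genes with an unadjusted p under 0.05 are named, at most 4. Members and lists were chosen with earlier results of these data known, and no p is adjusted over a list. The separate values of 1 member are not reported here, while class counts and medians include it. Alternatives were DESeq2 1.42.0 and limma 3.58.1 (voom), other normalizations and filters, removal of ribosomal RNA genes with *Lars2*, a covariate for the share of ribosomal RNA, leaving out each library, and a length and GC correction.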

Additional observations from a re-analysis of the deposited data

How the results depend on the processing

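No paired analysis was run because the labels do not pair control with miDrp1KO mice. The cytosolic median log2 fold change stayed negative in every fit run, between -0.404 (without library A) and -0.221 (without library E), and was -0.224 with upper quartile normalization, which moved the median of all genes to 0.106. The mitochondrial median changed sign between fits, from -0.116 (without control library C) to 0.0656 (upper quartile normalization). Between 7 and 11 of the 16 mitochondrial genes were negative. At least 18 of the 19 cytosolic genes were negative in each fit, and no enzyme of either class with an adjusted p passed the threshold in any of them (DESeq2 gave none to 7 of the 16 mitochondrial genes), while 5 cytosolic and 1 mitochondrial did at an unadjusted p. Genes called over all genes were 2, against 55 in DESeq2, 1 in voom, 8 without a filter, 1796 at an unadjusted p, and 1 to 7 without single libraries. Cytosolic genes at an unadjusted p under 0.05 were 5, against 2 with upper quartile normalization and 3 with a minimum of 10 counts per library. There were 8 with the length and GC correction (chosen after seeing the data). Without control library D there was 1 and without miDrp1KO library A there were 11, with 2 each without B or E. Over all genes, those lower at this threshold were 639 of 16483 with upper quartile and 815 of 13517 with the minimum. They were 1334 of 14828 with the correction, and ran from 382 of 17750 (without D) to 1589 of 17845 (without A). For mitochondrial genes the count at this threshold was 1, against 0 with upper quartile normalization, 0 with the ribosomal RNA covariate and 0 to 2 without single libraries. In either direction, 1831 of 16483 genes passed it with upper quartile normalization and 1517 of 16483 with the covariate. Without single libraries, 951 of 17750 (without D) to 3115 of 17845 (without A) did. The mitochondrial count below all controls was 2, against 0 with upper quartile normalization (6.9% of all genes) and 0 with the count minimum (10.3%). It was 1 without ribosomal RNA genes and *Lars2* (9.01%) and 2 to 4 without single libraries (10.8 to 17.5%). The cytosolic count below all controls was 7 to 9 under other normalizations and filters, where 6.61 to 10.3% of all genes were below. It was 8 to 15 without single libraries, where 10.8 to 17.5% of all genes were below.
Several log2 fold changes turned sign, most of them small, with *Lars2* the exception. *Ears2* was at 0.00626 in DESeq2, 0.00707 with RLE, 0.0878 with upper quartile, 0.00365 without a filter, 0.0396 with the count minimum, and 0.035 without ribosomal RNA genes and *Lars2*. *Dars* was at 0.0717 with upper quartile, 0.0244 with the count minimum and 0.0208 without ribosomal RNA genes and *Lars2*, and *Wars2* at 0.0435 with upper quartile. *Lars2* was at -0.08 in voom and -0.564 with the ribosomal RNA covariate, *Fars2* at -0.0208 with that covariate and -0.0208 with the length and GC correction, and *Prorsd1* at -0.0461 with the latter. Without single libraries, *Dars* ran from -0.0331 to 0.022, *Wars2* from -0.174 to 0.0685, *Fars2* from -0.194 to 0.275, *Ears2* from -0.112 to 0.147, *Cars2* from -0.0218 to 0.202, *Yars2* from -0.0956 to 0.269, *Sars2* from -0.206 to 0.0682 and *Iars* from -0.404 to 0.0109. The cause of these changes was not tested. The SE of 0.15 to 0.28 limits what 3 mice a group can show.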
